A study of Mus musculus with 10 samples.

Results

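The 9 enzymes that make serine and move its carbon through folate were followed in whole lungs of young mice with increased pulmonary flow (IPF) and of sham-operated mice. They are Shmt2, Mthfd2, Mthfd2l and Mthfd1l of the mitochondrial folate pathway, Shmt1 and Mthfd1 of the cytosolic one, and Phgdh, Psat1 and Psph of serine synthesis. Each was taken by its gene symbol from the deposited P30 expression table, so the set holds 9 of 54532 genes. All 9 passed the filter on low values (a mean of at least 0.1 FPKM, fragments scaled by gene length and library size), which 20448 genes passed. The set was chosen with the IPF and sham values of these same lungs already known, so the differences of its 9 genes between the groups are given as a description, without p-values. Which of the 9 were called in the fit over all genes is given below, and nothing is read from it.

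Cells build serine from a glycolytic intermediate through Phgdh, Psat1 and Psph. Serine hydroxymethyltransferase then passes a carbon unit from serine to tetrahydrofolate and leaves glycine, through Shmt2 in the mitochondrion and through Shmt1 in the cytosol. In the mitochondrion, Mthfd2 or Mthfd2l oxidises the folate-bound carbon and Mthfd1l releases it as formate. Formate leaves for the cytosol, where the trifunctional enzyme Mthfd1 loads it on folate again for purine, thymidylate and methionine synthesis. Proliferating and embryonic tissues are known to use the mitochondrial route strongly.

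The 10 lungs came from C57BL/6J wild-type mice, 5 per group, collected at P30. In the IPF group the abdominal aorta was punctured into the inferior vena cava at P7, which shunts blood back to the right heart and raises flow through the lung. Sham mice had the vessels exposed in the same way without the puncture. Whole lung was used, so every value is a mean over all lung cells, and fewer cells of a type and less RNA per cell cannot be told apart.

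The reads on genes numbered 16250190 to 19026843 in the IPF lungs and 15483046 to 17818542 in the sham lungs. Genes that mark sex divided the lungs by group. Xist, expressed from the inactive X chromosome, lay at 26.8 to 43.2 FPKM in IPF and at 0.0301 to 0.0767 FPKM in sham, and the Y-linked Ddx3y was at 0 in every IPF lung and at 14.3 to 21.4 FPKM in sham. Clock genes divided them too, with Arntl at 3.31 to 6.85 FPKM in IPF and 0.311 to 0.452 FPKM in sham, and Dbp at 1.74 to 3.49 against 23.2 to 29.3 FPKM. The operation, the sex that these genes mark and the phase of the clock cannot be told apart in any difference between these groups. The methods of the study describe pups of either sex and an allocation balanced by sex where feasible, which this division of Xist and Ddx3y does not match. Heart muscle markers (Myh6, Myl7, Nppa and Ryr2) summed to 83.1 FPKM in IPF replicate 4 and 70.9 FPKM in sham replicate 3, and to at most 3.03 FPKM in the other lungs. Neutrophil markers summed to 297 FPKM in IPF replicate 5 and to at most 72.8 FPKM in the other lungs. Of 16 lists of cell type markers, the summed levels of 2 did not overlap between groups. The endothelial markers summed to 950 to 1076 FPKM in IPF against 838 to 887 FPKM in sham (1 of 5 called higher), and the B cell markers to 30.7 to 45.7 against 16.5 to 27.2 FPKM (4 of 4 called higher). Of the 15 lists with a gene tested, 11 had none called. The single calls were Cldn5 in the endothelial list, Pdgfra in the fibroblast list and Cd4 in the T cell list, all higher. The gap between the endothelial sums rested on Cldn5, at 432 to 481 FPKM in IPF and 238 to 340 FPKM in sham. Without Cldn5, the endothelial sums of the groups overlap. The part of these cells, of sex and of the clock in the values below was not tested.

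Mthfd1l and Mthfd1 are paralogs whose products carry the same formate-handling activity on either side of the mitochondrial membrane, and their levels lay on opposite sides of sham. Their upstream sequences are shown for that reason, as the 250 bases before the start site in the RefSeq promoter table (build GRCm38.p6, plus strand, 5′ to 3′), at chr10:3972825-3973074 for Mthfd1l and chr12:76254982-76255231 for Mthfd1. Capitals mark a CCAAT box, here read on the opposite strand.
Mthfd1l: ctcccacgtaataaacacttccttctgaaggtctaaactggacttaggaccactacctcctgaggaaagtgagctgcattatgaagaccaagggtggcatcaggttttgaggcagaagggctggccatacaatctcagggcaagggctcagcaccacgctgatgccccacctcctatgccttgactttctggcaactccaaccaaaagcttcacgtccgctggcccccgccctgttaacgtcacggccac
Mthfd1: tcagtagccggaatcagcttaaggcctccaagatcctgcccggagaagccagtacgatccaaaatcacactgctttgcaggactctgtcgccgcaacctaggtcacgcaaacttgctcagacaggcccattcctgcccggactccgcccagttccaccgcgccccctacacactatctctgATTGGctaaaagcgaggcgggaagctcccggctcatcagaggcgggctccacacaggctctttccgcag

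The table held 10 promoters for the 9 genes, with 2 for Psat1. The 4 motifs were searched on both strands. The amino acid response element TGATGNAA was in 0 of the 10 (3.45% of all 32851 promoters held it), the E-box CACGTG in 0 (6.02%) and the NRF1 element in 1, that of Shmt2 (3.74%). The CCAAT box was in 6, those of Mthfd1, Mthfd2, Phgdh, Psat1, Psph and Shmt1 (33.8%), and the Mthfd1l promoter held none of the 4. A missing match says only that these letters are not in this window.

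Paralogs can share reads, so the coding sequences of the 3 pairs were compared in GENCODE vM39 (build GRCm39). Mthfd1l and Mthfd1 were identical at 65.7% of aligned bases, Shmt2 and Shmt1 at 65.6%, and Mthfd2 and Mthfd2l at 69.9%. The longest identical stretch of each pair is printed below, in lower case throughout. It was 20 bases for Mthfd1l and Mthfd1, 19 for Shmt2 and Shmt1 and 20 for Mthfd2 and Mthfd2l, over any pair of their transcripts, which is shorter than a sequencing read.
Mthfd1l and Mthfd1: ggaacgatgagcacaatgcc
Shmt2 and Shmt1: cccaagactggcaaagaga
Mthfd2 and Mthfd2l: cccatgaccgtggccatgct

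The spans of 7 of the 9 genes were overlapped by 11 other genes of the table. Only 3 of those 11 reached 1 FPKM in any lung, and all 3 lie on the opposite strand of Shmt2 (Ndufa4l2), Shmt1 (Smcr8) or Psph (Cct6a). Whether the counting used strand was not given in the sources used here, so reads in those overlaps are uncertain. The 2 genes inside the span of Mthfd1l, a pseudogene and a small nuclear RNA gene, were at 0 in every lung.

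Mthfd1l, the mitochondrial formate-releasing enzyme (ENSMUSG00000040675, chr10:3973118-4167081 in GRCm38), had by far the largest difference of the set. Its levels in IPF replicates 1 to 5 were 1.21, 1.30, 1.26, 1.44 and 1.57 FPKM. In sham replicates 1 to 5 they were 4.49, 4.12, 5.06, 4.71 and 4.63 FPKM. Every IPF lung lay far below every sham lung, and the groups did not overlap. The mean was 1.35 ± 0.146 FPKM in IPF and 4.60 ± 0.339 FPKM in sham (SD, n = 5 each), 3.40-fold lower, with a difference of -1.70 on the log2(FPKM + 0.1) scale (SE 0.09). These values rested on 91 to 123 reads per IPF lung and 313 to 360 per sham lung. Among the 20448 genes tested, 87 had a more negative difference, and 29 of those were among the 13445 genes with a mean of at least 1 FPKM. Leaving out any 1 lung gave -1.75 to -1.66. The nearest tested protein-coding genes on either side, looked up after the Mthfd1l value was seen, were not called, with a log2 difference of 0.32 for Plekhg1 (limma adjusted p = 0.137) and 0.12 for Akap12 (limma adjusted p = 0.339).

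The other mitochondrial folate enzymes overlapped between the groups. Shmt2, which takes the carbon from serine (ENSMUSG00000025403, chr10:127517123-127522444), was at 8.26, 8.47, 7.38, 7.70 and 7.14 FPKM in IPF replicates 1 to 5. It was at 7.63, 8.21, 7.11, 7.36 and 8.25 FPKM in sham replicates 1 to 5. The ranges covered each other almost wholly, with means of 7.79 ± 0.564 and 7.71 ± 0.508 FPKM and a log2 difference of 0.01 (SE 0.07). Mthfd2, the dehydrogenase and cyclohydrolase best known from embryonic and dividing cells (ENSMUSG00000005667, chr6:83305691-83325908), was at 2.22, 2.41, 2.35, 3.10 and 1.72 FPKM in IPF and 2.17, 2.37, 2.13, 2.29 and 1.88 FPKM in sham. The highest and the lowest of these 10 values were both IPF lungs (replicates 4 and 5), and the log2 difference of 0.10 was below its SE of 0.14. The difference was -0.002 without IPF replicate 4 and 0.20 without IPF replicate 5. Mthfd2l, its adult-type paralog (ENSMUSG00000029376, chr5:90931117-91021368), was at 1.73, 1.58, 1.61, 1.76 and 1.50 FPKM in IPF and 1.33, 1.77, 1.89, 1.76 and 1.86 FPKM in sham. Sham replicate 1 was the lowest lung, the groups overlapped, and the log2 difference was -0.06 (SE 0.11). It was -0.15 without sham replicate 1 and -0.03 without sham replicate 3.

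**Figure D1:**
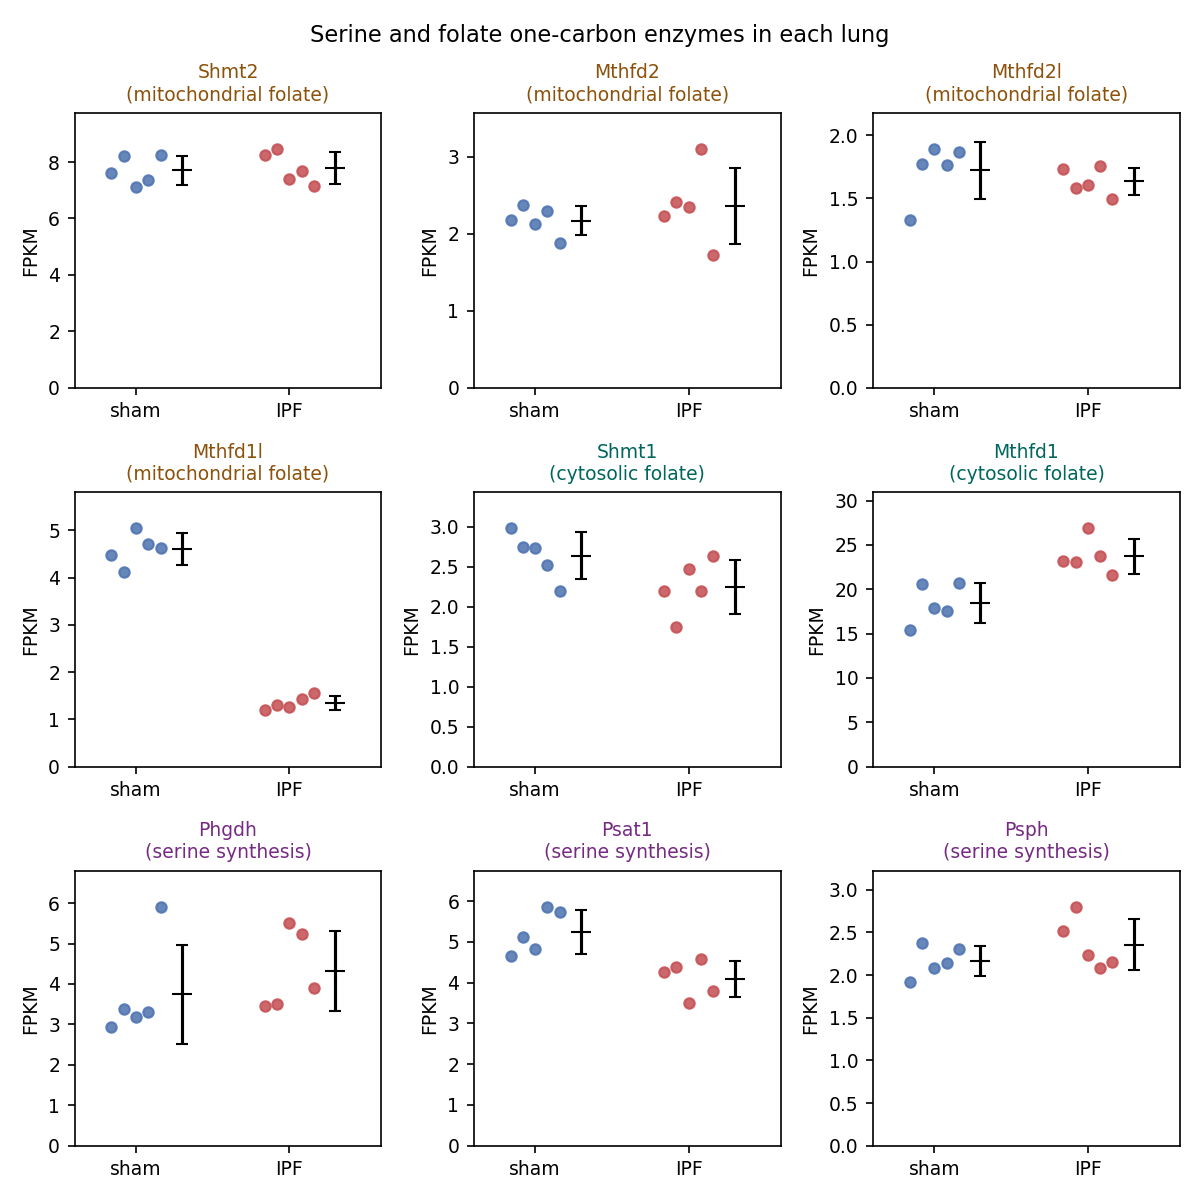
FPKM of each of the 9 enzymes in the 5 sham and 5 IPF lungs, with every axis starting at 0. Each point is a lung in the order of replicates 1 to 5, and the bar beside the points is the mean ± SD. For Mthfd1l the IPF points lie at 1.21 to 1.57 FPKM and the sham points at 4.12 to 5.06 FPKM, whereas the points of Shmt2, Mthfd2 and Mthfd2l overlap.

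In the cytosol, Mthfd1 was higher and Shmt1 overlapped. Mthfd1, which loads formate on folate and interconverts the carbon units (ENSMUSG00000021048, chr12:76255298-76319803), was at 23.2, 23.1, 26.9, 23.7 and 21.6 FPKM in IPF replicates 1 to 5. In sham replicates 1 to 5 it was at 15.4, 20.6, 17.9, 17.5 and 20.7 FPKM. All IPF lungs lay above all sham lungs, although the lowest IPF lung and the highest sham lung were close. The means were 23.7 ± 1.98 and 18.4 ± 2.27 FPKM, 1.28-fold higher, with a log2 difference of 0.36 (SE 0.09) that fell to 0.30 without sham replicate 1. Shmt1, the cytosolic counterpart of Shmt2 (ENSMUSG00000020534, chr11:60788104-60811718), was at 2.19, 1.75, 2.47, 2.19 and 2.63 FPKM in IPF and 2.98, 2.74, 2.73, 2.52 and 2.20 FPKM in sham. In IPF, replicates 1 and 4 (both 2.19 FPKM) lay only just below the lowest sham lung (2.20 FPKM), and replicate 2 (1.75 FPKM) lay further below. The other 2 lay within the sham range. The log2 difference was -0.23 (SE 0.12), and -0.14 without IPF replicate 2.

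The 3 serine synthesis enzymes did not move as a block. Phgdh, which commits the glycolytic intermediate to serine (ENSMUSG00000053398, chr3:98313170-98339990), was at 3.45, 3.50, 5.51, 5.23 and 3.89 FPKM in IPF and 2.93, 3.39, 3.18, 3.31 and 5.91 FPKM in sham. Sham replicate 5 was the highest lung of all, while the other 4 sham lungs lay at 2.93 to 3.39 FPKM, below every IPF lung. The log2 difference was 0.22 (SE 0.20) over all lungs, 0.39 without sham replicate 5, 0.13 without IPF replicate 3 and 0.10 without the 2 lungs with heart muscle genes. Psat1, the transaminase of the second step (ENSMUSG00000024640, chr19:15904678-15947337), was at 4.27, 4.37, 3.49, 4.57 and 3.79 FPKM in IPF and 4.65, 5.11, 4.83, 5.86 and 5.73 FPKM in sham. Every IPF lung was below every sham lung, but the gap between the nearest was small. The Psat1 means were 4.10 ± 0.443 and 5.24 ± 0.538 FPKM, 1.28-fold lower, with a log2 difference of -0.35 (SE 0.10). Psph, the phosphatase of the last step (ENSMUSG00000029446, chr5:129765558-129787449), was at 2.51, 2.80, 2.24, 2.08 and 2.15 FPKM in IPF and 1.92, 2.37, 2.09, 2.14 and 2.30 FPKM in sham. These ranges overlapped and the log2 difference was 0.11 (SE 0.10), falling to 0.05 without IPF replicate 2.

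**Figure D2:**
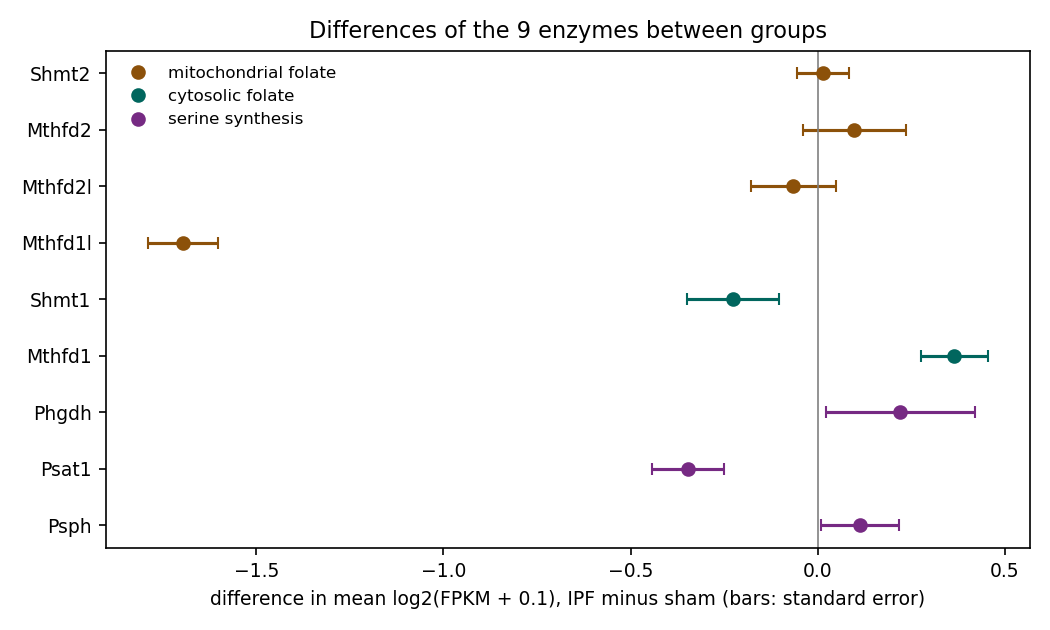
Difference between the IPF and sham means of log2(FPKM + 0.1) for each enzyme, with the standard error of the fit as the bar and the compartment as the colour. Mthfd1l lies at -1.70 and the other 8 between -0.35 (Psat1) and 0.36 (Mthfd1).

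By limma over all 20448 genes (called at an adjusted p under 0.05), 2 of the 9 enzymes were called, against 5.85% of all genes. Mthfd1 was the 1 called higher (3.71% of all genes) and Mthfd1l the 1 called lower (2.14%). The groups did not overlap in 3 of the 9, against 7.29% of all genes, with Mthfd1 higher (4.52%) and Mthfd1l and Psat1 lower (2.77%). With any of 7 of the 10 lungs left out (IPF replicates 1 to 4 and sham replicates 1, 3 and 4) Mthfd1 was not called, so that 1 of the 9 remained. Nothing is read from these counts, since the set was chosen on this contrast. The median log2 difference was 0.01 over the 9 and 0.00 over all genes tested.

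The mitochondrial and cytosolic sides were compared within each lung. The mean log2 level of the 4 mitochondrial folate enzymes minus that of Shmt1 and Mthfd1 was -1.48, -1.30, -1.70, -1.35 and -1.66 in IPF replicates 1 to 5. In the sham lungs it lay between -1.10 and -0.94. The groups did not overlap, with means of -1.50 and -1.02 and a difference of -0.48 (SE 0.09). Taken against all 5 cytosolic enzymes, the difference was -0.44 (SE 0.06). It rested on a single gene. Without Mthfd1l, the balance was -1.21 in IPF and -1.16 in sham, the groups overlapped, and the difference was -0.05 (SE 0.10). The mean log2 level of the 3 serine synthesis enzymes was 1.82 in IPF and 1.83 in sham.

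Ratios of paralogs in the same lung showed the same single gene. Mthfd1l over Mthfd1 was 0.0521, 0.0562, 0.0470, 0.0605 and 0.0727 in IPF replicates 1 to 5, a mean of 0.0577 ± 0.00978 (SD). In sham replicates 1 to 5 it was 0.292, 0.200, 0.282, 0.269 and 0.223, a mean of 0.253 ± 0.0397. The groups were far apart in this ratio, to which both genes contributed. Shmt2 over Shmt1 was 3.57 ± 0.829 in IPF and 2.97 ± 0.480 in sham and overlapped. Mthfd2 over Mthfd2l was 1.44 ± 0.235 and 1.28 ± 0.238 and overlapped as well. Psat1 over Phgdh, successive enzymes of serine synthesis, was 0.993 ± 0.259 in IPF and 1.47 ± 0.299 in sham, again with overlap.

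**Figure D3:**
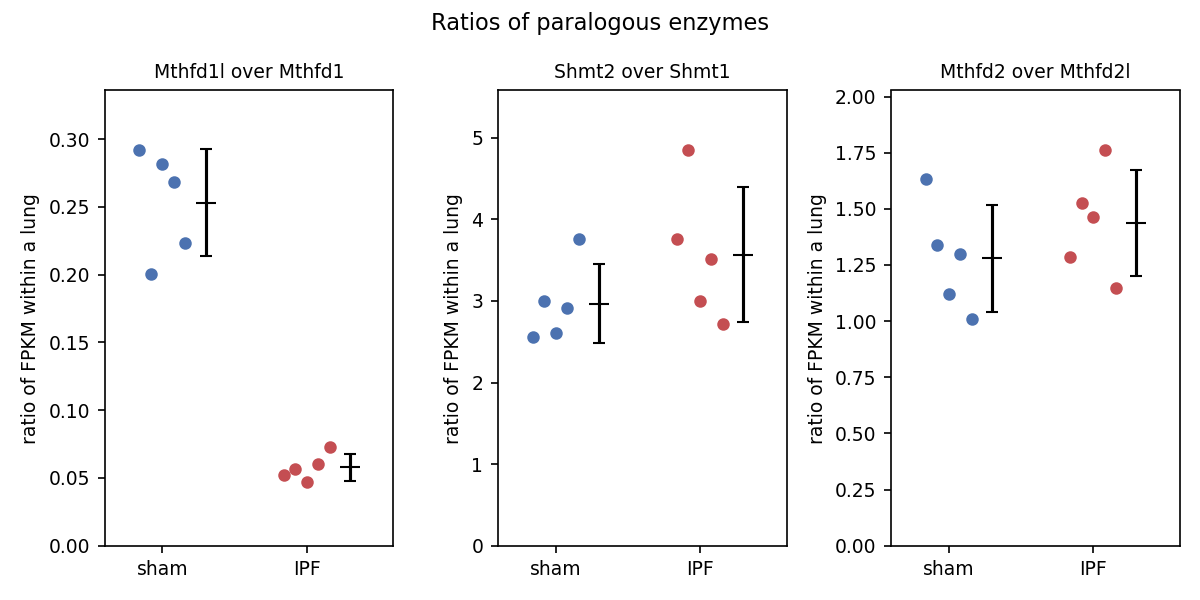
Ratio of the FPKM of 2 paralogs within each lung, for 3 pairs, with the mean ± SD beside the 5 points of each group and axes from 0. Mthfd1l over Mthfd1 lies at 0.0470 to 0.0727 in IPF and 0.200 to 0.292 in sham, and the other 2 ratios overlap between the groups.

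FPKM is scaled by gene length, so levels can be set in order across genes. Mthfd1 was the highest and Shmt2 the next in all 10 lungs, without overlap between them or with the gene that followed. In sham, Psat1 came next, followed by Mthfd1l, Phgdh, Shmt1, Mthfd2 and Psph, each overlapping its neighbour in range, and Mthfd2l was last in all 5 lungs. In IPF, Phgdh and Psat1 overlapped and lay above Mthfd2, Psph and Shmt1, which could not be ordered (the order of Mthfd2 over Psph held in 2 of 5 lungs). Mthfd2l and Mthfd1l closed the IPF order, with Mthfd1l below Mthfd2l in 4 of 5 lungs. Mthfd1l thus stood at place 4 of 9 in sham and at place 9 in IPF.

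Among lungs of the same group, the 9 enzymes did not vary together. Over the 10 lungs, deviations from the group mean of log2(FPKM + 0.1) had a median Pearson's r of 0.10 over the 36 pairs of enzymes, with 22 pairs above 0 and 14 below. The highest was 0.77 between Shmt2 and Psph, and the lowest -0.75 between Shmt1 and Psat1. Mthfd1l went against Shmt2, the first enzyme of its own route, at -0.70, and Mthfd1 went with Phgdh at 0.69. The r of 0.65 between Mthfd2l and Mthfd1 rested on 1 lung, since it was 0.18 without sham replicate 1. These correlations are descriptions over 10 points that share their libraries.

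**Figure D4:**
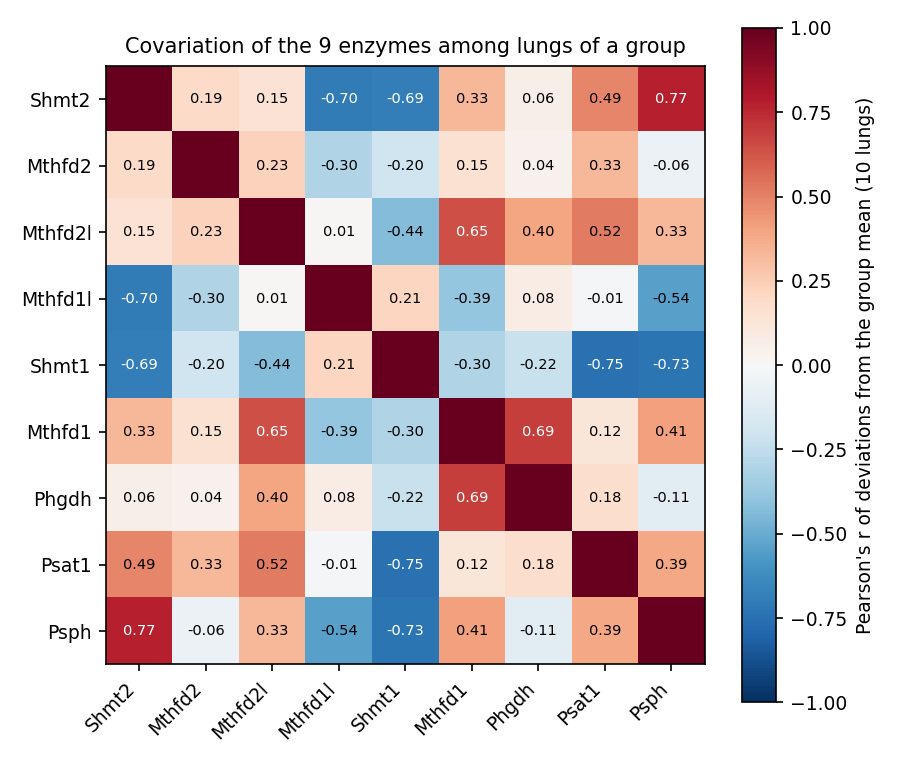
Pearson's r between the 9 enzymes over the 10 lungs, from deviations of log2(FPKM + 0.1) from the group mean, in red above 0 and in blue below. The cells range from -0.75 (Shmt1 and Psat1) to 0.77 (Shmt2 and Psph), and the 4 mitochondrial enzymes in the upper left form no common block.

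The genes most like the 3 enzymes with the largest differences were looked up among 13444 genes with a mean of at least 1 FPKM, again within groups. For Mthfd1l they were Ctso (r = 0.93), Pcdhb17 (0.93), Osbpl1a (0.91), Lfng (0.90) and Crk (0.89). For Mthfd1 they were Ttc27 (0.97), Bcap29 (0.95), Copb2 (0.94), Tmem219 (0.94) and Pccb (0.92). For Psat1 they were Podxl2 (0.94), Trim35 (0.94), D16Ertd472e (0.93), Riok2 (0.92) and Ugdh (0.92). No other enzyme of the set stood among these 15 genes, and none of the 15 was called between IPF and sham. The values of r are the highest found in a search of 13444 genes over few lungs. How high such maxima run among unrelated genes was not tested, so no link between these genes and the enzymes is read from them.

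The rest of the pathway was followed through 8 lists written from general knowledge, which hold 98 genes, of which 93 were tested by limma. Of these 93, 8 were called, 2 higher and 6 lower (8.60%, against 5.85% of all genes), and the median log2 difference was -0.01. Genes around the folate cycle itself were not called. Of 11 other mitochondrial folate and glycine genes 9 were tested and 0 called (2 at an unadjusted p under 0.05, 1 by voom), with a median log2 difference of -0.10. Among them were the mitochondrial folate carrier Slc25a32 (0.01, limma adjusted p = 0.968), the serine carrier Sfxn1 (-0.20, limma adjusted p = 0.422) and Aldh1l2, which burns formyl-folate in the mitochondrion (-0.22, limma adjusted p = 0.689). The groups did not overlap in 2 genes of this list, named after their values were seen. Sardh, the sarcosine dehydrogenase, was at 4.31 ± 0.394 FPKM in IPF and 5.30 ± 0.335 in sham (-0.29, limma adjusted p = 0.0534) and passed under 6 of the 21 alternative settings run, among them leaving out IPF replicate 1 (limma adjusted p = 0.0448). Dld, a subunit shared by the glycine cleavage system and other dehydrogenase complexes, was at 22.7 ± 0.717 and 20.7 ± 1.03 FPKM (0.14, limma adjusted p = 0.148) and passed under 0 of the 21. Of 11 other cytosolic folate genes 0 were called (2 at an unadjusted p under 0.05, 1 by voom), with a median of 0.05. Among these was the thymidylate synthase Tyms (-0.13, limma adjusted p = 0.734).

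Aldh1l1, which oxidises formyl-folate in the cytosol, was at 3.54, 3.10, 3.75, 3.80 and 3.82 FPKM in IPF and 2.78, 2.56, 3.49, 2.27 and 2.54 FPKM in sham. Of the IPF lungs, 4 exceeded every sham lung. Its log2 difference of 0.40 (SE 0.11) missed the threshold by limma (adjusted p = 0.0683). It passed under 3 of the 21 alternatives, among them leaving out sham replicate 3, and the limma adjusted p ranged from 0.0221 without that lung to 0.150. No gene was called by limma among 4 folate uptake genes (0 at an unadjusted p under 0.05, 0 by voom), 6 purine synthesis genes (2 unadjusted, 0 by voom) and 9 tested genes of the methionine cycle and transsulfuration (2 unadjusted, 1 by voom). Their median log2 differences were 0.06, -0.07 and 0.06. In the methionine list 5 differences were positive and 4 negative. It held the most negative difference of the 93 tested genes, that of Mat1a, named after its value was seen. Mat1a was at 2.18 ± 0.880 FPKM in IPF and 3.65 ± 0.626 FPKM in sham, with 4 of the 5 IPF lungs below every sham lung. Its log2 difference of -0.77 (SE 0.22) did not pass (limma adjusted p = 0.0657).

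Of 14 genes of serine transport and use, 1 was called and 4 had an unadjusted p under 0.05, with a median log2 difference of -0.02. Slc1a5, a neutral amino acid exchanger that carries serine and glutamine (ENSMUSG00000001918), was at 33.6, 34.1, 34.4, 30.3 and 34.5 FPKM in IPF replicates 1 to 5. In sham replicates 1 to 5 it was at 51.8, 51.1, 51.5, 46.6 and 38.2 FPKM. All IPF lungs lay below all sham lungs, and the mean fell from 47.9 ± 5.77 to 33.4 ± 1.79 FPKM (log2 difference -0.51, SE 0.09, limma adjusted p = 0.00621). Without the 2 lungs with heart muscle genes the difference was -0.45 and no longer passed (limma adjusted p = 0.0545). Its paralog Slc1a4, which also carries serine, differed the other way and was named after its value was seen. It was at 10.7 ± 1.80 FPKM in IPF and 7.75 ± 0.939 FPKM in sham, with 4 of the 5 IPF lungs above every sham lung. Its log2 difference of 0.45 (SE 0.13) did not pass (limma adjusted p = 0.0635). It passed under 3 of the 21 alternatives, among them leaving out IPF replicate 5, and the limma adjusted p ranged from 0.00443 without that lung to 0.251.

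The amino acid response, which Atf4 drives and which raises serine synthesis genes in many cells, had 4 of 22 tested genes called, 2 in each direction. At an unadjusted p under 0.05 there were 9, voom called 4, and the median log2 difference was 0.05. Nupr1, a small stress-induced chromatin protein, rose. It was at 41.0, 53.4, 56.8, 42.0 and 39.3 FPKM in IPF and 20.7, 23.9, 22.4, 24.4 and 22.2 FPKM in sham, with no overlap, a log2 difference of 1.02 (SE 0.11, limma adjusted p = 0.000432). Slc7a5, a transporter of large neutral amino acids, fell from 3.73 ± 0.425 to 2.19 ± 0.391 FPKM (log2 difference -0.76, limma adjusted p = 0.00722). Sesn2, a stress-induced leucine sensor, fell from 8.20 ± 0.455 to 6.16 ± 0.578 FPKM (-0.41, limma adjusted p = 0.00883), and was at -0.39 without the 2 lungs with heart muscle genes, where it did not pass (limma adjusted p = 0.0741). Ddit3, a transcription factor of the stress response, rose by 0.41 (limma adjusted p = 0.0323), but its adjusted p lay above 0.05 when any of 7 of the 10 lungs was left out, IPF replicates 1, 2 and 4 and sham replicates 1, 3, 4 and 5. Its log2 difference with 1 lung left out was 0.35 to 0.47. Aars, another gene of this list named after its value was seen, was at 9.43 ± 0.456 FPKM in IPF and 10.8 ± 0.490 FPKM in sham. Its groups did not overlap, but it was not called (-0.20, limma adjusted p = 0.0622). Atf4 itself was at 74.1 ± 5.02 FPKM in IPF and 69.5 ± 9.15 in sham (0.10, limma adjusted p = 0.604), and its target Asns at 7.31 ± 0.960 and 7.46 ± 0.827 (-0.03, limma adjusted p = 0.912).

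Of 18 proliferation genes, 3 were called, all lower, with a median log2 difference of 0.02. The 3 called were Mcm5 (-0.66, limma adjusted p = 0.0140), Mcm4 (-0.45, limma adjusted p = 0.0144) and Mcm2 (-0.64, limma adjusted p = 0.0180), subunits of the helicase that opens DNA for replication. Mcm5, for example, lay at 3.41 to 5.15 FPKM in IPF and 5.73 to 8.26 FPKM in sham, and its log2 difference was -0.68 without the 2 lungs with heart muscle genes, where it did not pass (limma adjusted p = 0.0687). Splitting the list after its values were seen, the 6 Mcm genes all had negative differences (median -0.44), and of the other 12 genes 0 were called by limma (1 at an unadjusted p under 0.05, 1 by voom), with a median of 0.13. Of those 12, 9 had positive differences. The most positive, named after its value was seen, was that of the spindle checkpoint kinase Bub1 (0.74, limma adjusted p = 0.0684), at 1.41 ± 0.338 FPKM in IPF and 0.812 ± 0.246 in sham. It passed under 4 of the 21 alternatives, among them leaving out IPF replicate 5 (limma adjusted p = 0.0478) or sham replicate 5 (limma adjusted p = 0.0379). The mitotic cyclins Ccnb1 and Ccnb2 differed by 0.42 and 0.39 (limma adjusted p = 0.283 and 0.259). The division marker Mki67 was at 3.20 ± 0.811 FPKM in IPF and 2.96 ± 0.728 in sham, and Pcna, the sliding clamp of DNA replication, at 34.3 ± 4.25 and 34.8 ± 3.62.

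**Figure D5:**
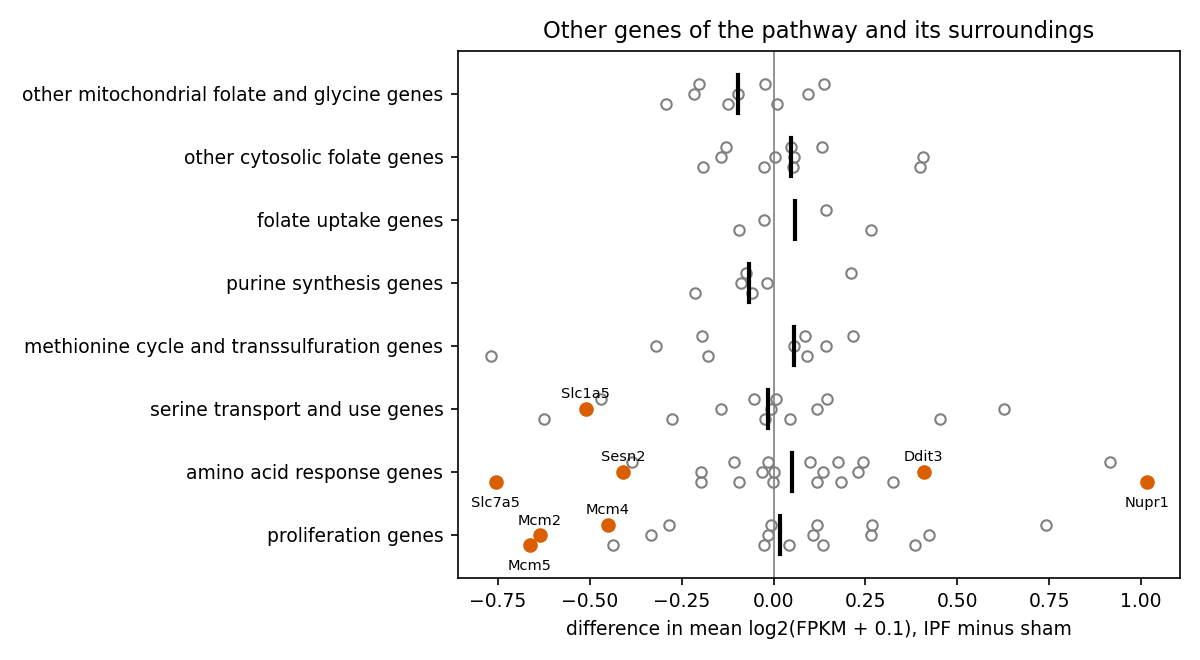
Difference between the IPF and sham means of log2(FPKM + 0.1) for the 93 tested genes of the 8 lists, 1 point per gene, with called genes filled and named and the median of each list as a black line. The medians lie between -0.10 and 0.06, and the called genes belong to the lists of serine transport and use, amino acid response and proliferation.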

How the data were processed

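RNA of whole lung was sequenced from 10 mice, 5 IPF and 5 sham. The authors deposited FPKM values. Their methods name Fastp, HISAT2 with GRCm39 and StringTie, but the positions in the deposited table are those of GRCm38 (its last gene on chromosome 1 ends at 195323493), so which run made the table is not given in the sources used here. FPKM times the gene length gave whole multiples of 1 step per sample (100% of the values checked within 0.01 read). The genes with the highest read numbers were left out of this check. Reads were recovered from these multiples, 15483046 to 19026843 per lung.

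Values were tested here as log2(FPKM + 0.1) with limma 3.58.1 (trended variances, R 4.3.3), IPF against sham without covariates, for genes averaging 0.1 FPKM or more. P-values were adjusted by Benjamini-Hochberg, two-sided, and genes called at 0.05. This scale understates changes of low genes. DESeq2, used by the study, was not run. The recovered reads were tested with voom as an alternative. The test was tested on simulated data. The labels number the replicates alike in both groups. Same-numbered lungs correlated at -0.0204 to 0.0953 in their deviations, so the numbers were not taken as pairs. Nothing in the labels ties lungs to litters or days.

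The 9 enzymes and all lists were chosen with earlier results of these data known. Named are the 9 enzymes, up to 4 called genes per list by p, fixed genes (Slc25a32, Sfxn1, Aldh1l2, Aldh1l1, Tyms, Atf4 and Asns, with others of that fixed set not reported here) and the 5 genes most like each of 3 enzymes. Others were named after their values were seen: Mki67, Pcna, Bub1, Ccnb1, Ccnb2, Slc1a4, Sardh, Dld, Mat1a, Aars, called marker genes, Plekhg1, Akap12 and the genes that overlap a member. The closing section gives the effect of 21 alternatives. Protein sequences were not used here.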

Additional observations from a re-analysis of the deposited data

Results flagged for a closer look

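For the genes and summed marker levels whose values are given above, the paralog ratios and the mitochondrial balance, the highest and lowest lung of each group of 5 was compared with the rest on a log2 scale by Dixon's ratio (critical value 0.71). The genes named only for their likeness, the called marker genes, Mat1a and Aars were not compared. Of 97 groups, 12 held a lung that stood apart, and chance gives about 1 in 20 groups. Several of these values share a gene or a lung. Mthfd2l in sham replicate 1 was at 1.33 FPKM, below the other sham lungs at 1.76 to 1.89. Phgdh in sham replicate 5 was at 5.91 FPKM, above the others at 2.93 to 3.39, and Psat1 over Phgdh in that lung was 0.971, below the others at 1.51 to 1.77. Sfxn1 in IPF replicate 3 was at 2.51 FPKM, above the others at 1.73 to 1.88. Slc1a5 in IPF replicate 4, a lung with heart muscle genes, was at 30.3 FPKM, below the others at 33.6 to 34.5. Dld in IPF replicate 2 was at 24.0 FPKM, above the others at 22.3 to 22.7. In IPF replicate 5, Slc1a4 was at 7.72 FPKM, below the others at 10.7 to 12.2, Arntl was at 3.31 FPKM, below the others at 5.61 to 6.85, and the neutrophil markers summed to 297 FPKM, above the others at 51.7 to 72.8. Plekhg1 in sham replicate 3 was at 3.90 FPKM, below the others at 5.14 to 5.75. The heart muscle markers summed to 83.1 FPKM in IPF replicate 4, above the others at 0.836 to 3.03, and to 70.9 FPKM in sham replicate 3, above the others at 0.547 to 1.94.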

How the results depend on the processing

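Of the 9 enzymes' differences, that of Mthfd1l moved most, from -1.70 to -1.25 with a pseudocount of 1, which compresses low values by construction. It was -1.75 to -1.66 with any 1 lung left out. No result changed sign while called. The genes called numbered 1196, or 775 to 1620 with 1 lung left out (775 without IPF replicate 4, 1620 without IPF replicate 5). They numbered 396 without the 2 lungs with heart muscle genes, an alternative chosen after seeing the data, which leaves 4 lungs a group. The 2 enzymes called became 3 with a mean FPKM of at least 1, array weights or voom, and 1 with no filter, quantile normalization, no variance trend or without those 2 lungs, and 1 to 2 with 1 lung left out (1, with Mthfd1 not called, without any of IPF replicates 1 to 4 or sham replicates 1, 3 and 4). With the replicate number as a block, 1 enzyme and 1045 genes were called, and the methionine list had 1. The lists moved by few genes. Called were 1 other mitochondrial gene with quantile normalization, median-of-ratios scaling, array weights, voom or a mean FPKM of at least 1 (0 to 1 with 1 lung left out). Called was 1 other cytosolic gene with a mean FPKM of at least 1 or voom (0 to 1), 0 to 1 purine genes with 1 lung left out, and 1 methionine gene with a mean FPKM of at least 1, array weights or voom (0 to 1). For serine transport and use, 2 genes were called with a mean FPKM of at least 1 or array weights, 0 without the 2 lungs with heart muscle genes and 1 to 3 with 1 lung left out (3 without IPF replicate 5). The amino acid response had 2 without those 2 lungs (3 to 5 with 1 left out), and proliferation 5 with array weights or voom (3 to 4 with 1 left out). The cause of these moves was not tested. The enzymes rested on as few as 91 reads in a lung.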
